A study of Brassica napus with 6 samples.

Results

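Prolyl 4-hydroxylases are oxygenases of the secretory pathway that turn prolines of cell wall proteins into hydroxyproline, using oxygen, 2-oxoglutarate, iron and ascorbate. Sugars are then attached to the hydroxyprolines of extensins, which build a protein network in the wall, and of arabinogalactan proteins at the cell surface. In Arabidopsis roots the enzymes are known above all for their part in root hair growth. The genes described here were 9 Arabidopsis loci annotated as prolyl 4-hydroxylases. A locus entered through a probe set whose annotation gave it as the single gene, and the brightest probe set was to stand for a gene with several. This gave 7 of the 9 loci, with 1 probe set each, of 13350 genes with a probe set of their own, so brightness decided no choice. AT2G17720, which acts in root hairs of Arabidopsis, and AT4G35810 were not matched and were left out. The family was taken up because AT1G20270 was already known to differ between the 2 treatments, so its difference is given as a description, with no test.

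The samples were roots of hydroponic oilseed rape (Brassica napus) of the cultivar Nourin No.16, with 3 biological replicates and 1 array each per group. One group received 10 µM cadmium chloride together with reduced glutathione (GSH), a thiol tripeptide from which plants make cadmium-binding phytochelatins, for 2 days, and the other received the same cadmium alone for 2 days. The labels state 100 mM GSH, a dose that could not be checked here. The labels disagree on plant age, with 4 weeks from germination in one place and seedlings of 2 to 3 weeks in another. Containers held 6 plants each. Both groups carried the cadmium treatment, and roots without it were not analysed here. The array is an Arabidopsis design, so each probe set stands for an Arabidopsis gene, copies of it in oilseed rape were not separated, and a low signal does not show a low transcript level. Values are log2 signals, in which a difference of 1 is a doubling, and levels of different probe sets are not comparable with each other.

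Of the 22746 probe sets, 89.3% held 1 value on all 6 arrays to within 0.01, and the remaining 2428 varied. Among the latter the first principal component, with 57.1% of the variance, placed replicate 1 of the GSH group at 7.03 and replicate 1 of the cadmium group at -8.54. These were the outermost arrays of their groups; the other 2 lay at 3.85 and 3.50 with GSH and at -3.87 and -1.97 with cadmium alone. Of 11 root markers 2 were matched. The root hair expansin EXPA7 was constant at 6.50, and EXPA18 stood at 6.67 ± 0.04 with GSH and 6.64 ± 0.13 with cadmium alone (SD, n = 3 each). The single matched marker of green tissue, RCA, was constant at 6.04. This was not above the brightest of 27 bacterial control probe sets, at 6.05, which was used as the limit of background. The 27 were those for dap, lys, phe, thr and trp, and the other control probe sets were not used for the limit.

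AT1G20270 was the 1 prolyl 4-hydroxylase with a varying signal, and it was lower on every array with GSH. Its signal was 5.81, 6.85 and 6.43 in roots given cadmium with GSH, against 8.00, 7.00 and 7.01 in roots given cadmium alone. The GSH arrays were spread out, while 2 of the cadmium arrays were nearly equal and the other, replicate 1, stood well above them. The groups did not overlap, but only 0.15 separated the highest GSH array from the lowest cadmium array. The means were 6.37 ± 0.52 with GSH and 7.34 ± 0.57 with cadmium alone (SD, n = 3 each). The difference was -0.97 (limma SE 0.39), a signal 1.96-fold lower with GSH.

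In a root extract, fewer cells that make a transcript and less of it per cell cannot be told apart. The lowest GSH value, 5.81, lay 0.24 under the background limit of 6.05, so on that array the signal of AT1G20270 may be only an upper bound. The limit is the mean of another probe set over the 6 arrays, so it is a rough guide. On the other 2 GSH arrays and on all 3 cadmium arrays AT1G20270 was above the limit. With each array held at no less than the limit, the difference was -0.89.

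**Figure D1:**
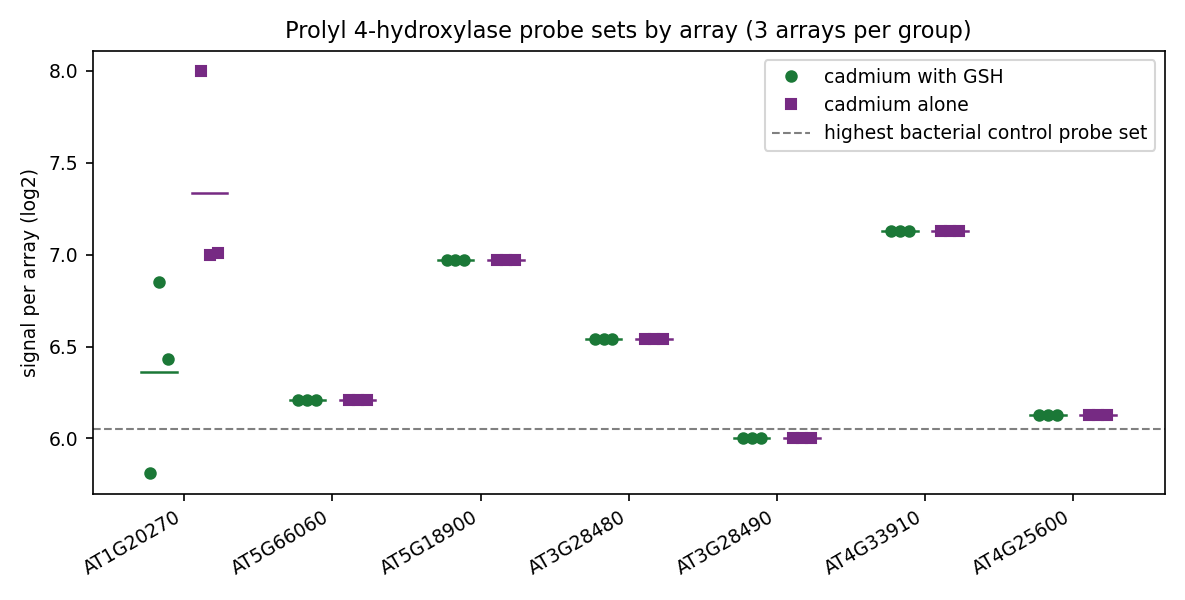
Log2 signal of the 7 matched prolyl 4-hydroxylase probe sets on each of 6 arrays. Circles are for cadmium with GSH, squares for cadmium alone and short lines for group means. A dashed line marks the brightest of the 27 bacterial control probe sets used for the background limit, at 6.05. AT1G20270 is spread from 5.81 to 8.00, and each of the other 6 sits at 1 value on all arrays.

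The other 6 matched members, which carry the same enzyme annotation, held a single value on all arrays. AT5G18900 stood at 6.97 and AT4G33910 at 7.13. AT3G28480 stood at 6.54, and AT5G66060 and AT4G25600 at 6.21 and 6.13, all above the background limit of 6.05. AT3G28490, whose locus number follows that of AT3G28480, stood at 6.00, under the limit. Within each of these 6 probe sets the largest spread over the arrays was 3e-08, the size of rounding. The values therefore cannot show a response of these genes to GSH in either direction.

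A constant member was the usual case in the deposited values. The share of varying probe sets was 10.7% over all those tested and 8.80% over the 13513 with a single annotated gene, against 1 of 7 (14.3%) for the prolyl 4-hydroxylases. The count was 1 of 7 as well when the limit on the range was 0.0001 or 0.1 in place of 0.01. The varying member, AT1G20270, was the gene for which the family was taken up. Nothing is therefore read from this share or from the count at other limits. Of 5 further Arabidopsis loci of the family, AT1G68080 and AT4G35820 were matched, and both were constant and under the background limit, at 5.92 and 5.76. AT2G43080, AT3G06300 and AT2G23096 were not matched.

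AT1G20270 was among the most variable probe sets of the table as well as among those with the largest differences. Its 6 values ranged over 2.19, a 4.56-fold span of signal, against a median range of 0.135 among the varying probe sets. Of the 2428, 11 including AT1G20270 ranged as far or farther, and 11 including AT1G20270 had a difference as low or lower. Its SD within the GSH group was 0.522, against a median of 0.0385 over the varying probe sets, and within the cadmium group 0.575, against a median of 0.0454. The difference between the treatments thus came with a spread among replicates that was large in both groups. Groups that did not overlap, with lower values under GSH, were seen in 9.84% of the varying probe sets (239 of 2428). AT1G20270 was chosen on this contrast. Nothing is therefore read from its membership here or from its place by difference and range.

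The size of the AT1G20270 difference depended on single arrays, while its sign could not turn when arrays were left out, since the groups did not overlap. It was -0.70 without GSH replicate 1, the array with its lowest value, and -0.64 without cadmium replicate 1, the array with its highest value. Without both of these arrays it was -0.37, with values of 6.85 and 6.43 for GSH against 7.00 and 7.01 for cadmium alone. Leaving out any 1 of the other 4 arrays gave -1.01 to -1.22. These 2 arrays are also the outermost on the first principal component. Like AT1G20270, 3.91% of the varying probe sets (95) were lowest on GSH replicate 1 and highest on cadmium replicate 1, each by over 0.01. The opposite order, highest on GSH replicate 1 and lowest on cadmium replicate 1, was seen in 2.43% (59). Quantile normalisation left the difference at -0.97 and median centring gave -0.96. A measure of RNA quality moved with the groups: the actin signal at the 3' end minus that at the 5' end was 1.45 ± 0.07 with GSH and 1.24 ± 0.05 with cadmium alone (SD, n = 3 each). Its part in the AT1G20270 difference was not tested.

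**Figure D2:**
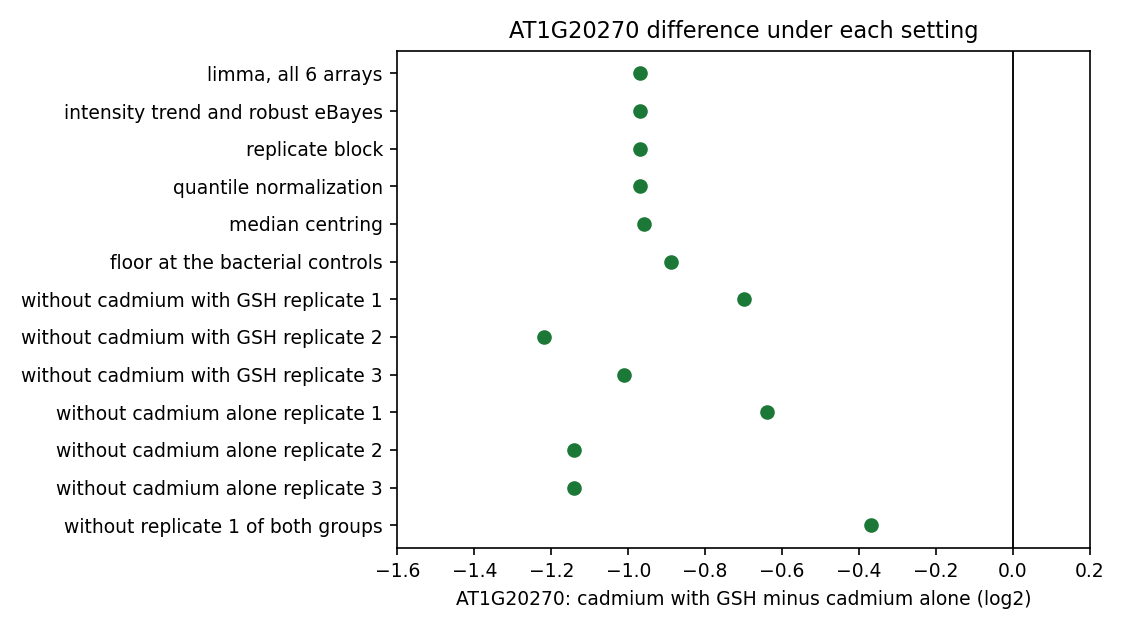
Log2 difference of AT1G20270, cadmium with GSH minus cadmium alone, under each setting, 1 point per setting and a vertical line at 0. The points run from -1.22 without GSH replicate 2 to -0.37 without replicate 1 of both groups.

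In the limma fit over all 2428 varying probe sets, 0 (0%) had a Benjamini-Hochberg adjusted p under 0.05, and 0.0791 was the smallest. The count at an unadjusted p under 0.05 was 312 (12.9%). The same fit over all 22746 probe sets called 42 (0.185%), with differences of at most 2.0e-09, the size of rounding. The 6 constant members had no variation to test, and AT1G20270 was not tested because it was chosen on this contrast.

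Genes with a profile like that of AT1G20270 were sought among the 1188 other varying probe sets with a single annotated gene, by the root mean square difference between the 6 array values after each gene was centred on its own mean. A flat profile would lie 0.662 from AT1G20270 on this measure, and the median over the 1188 was 0.663. The nearest was AT5G14700, at 0.293. RALFL33, of the rapid alkalinization factor family of signal peptides, lay at 0.325. AT2G26190 and ARL, a gene of organ growth in Arabidopsis, both lay at 0.332. PUB23, a ubiquitin ligase of stress responses in Arabidopsis, lay at 0.341. In all 5 the highest value was on cadmium replicate 1, as for AT1G20270, and in 4 the lowest was on GSH replicate 1, while PUB23 was level over the GSH arrays.

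These 5 were picked for sharing the pattern, so their differences are given without a test. AT5G14700 stood at 5.99, 6.33 and 6.10 with GSH, against 8.01, 6.50 and 6.39 with cadmium alone. PUB23 stood at 6.51 on all 3 GSH arrays, against 7.96, 6.91 and 6.72 with cadmium alone. RALFL33 stood at 6.37, 6.73 and 6.67 with GSH, against 7.69, 6.63 and 7.17 with cadmium alone, and was the 1 gene of the 5 whose groups overlapped. The GSH values of AT1G20270 were more spread than those of any of the 5, whose SDs with GSH ran from 0.00 in PUB23 to 0.19 in RALFL33. The 0.00 of PUB23 came from values equal to within 0.01, as in the constant probe sets, and may not measure the spread of replicates. ARL differed by -0.70 and AT2G26190 by -0.62. Without cadmium replicate 1 the differences were -0.30 for AT5G14700, -0.31 for RALFL33, -0.27 for AT2G26190, -0.53 for ARL and -0.31 for PUB23, against -0.64 for AT1G20270.

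**Figure D3:**
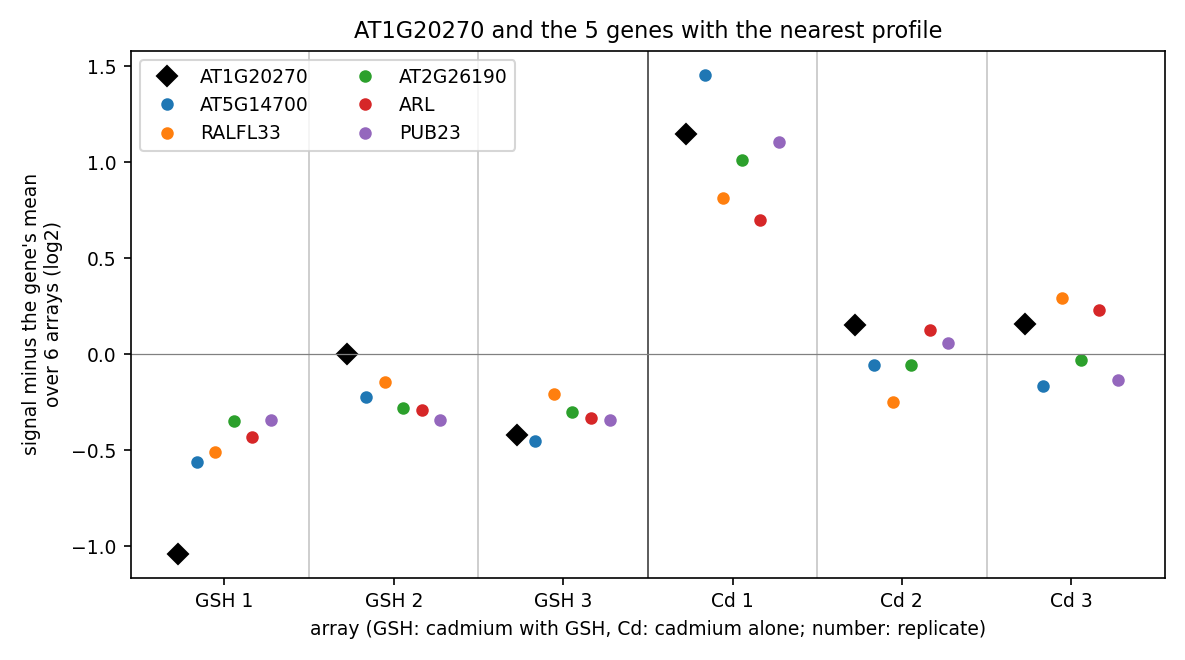
Log2 signal minus the gene's own mean over 6 arrays, for AT1G20270 (black diamonds) and the 5 genes with the nearest profile (circles), with the GSH arrays on the left. All 6 genes are highest on cadmium replicate 1, and AT1G20270 has the lowest value of all on GSH replicate 1.

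Among the matched substrates and partner enzymes of the prolyl 4-hydroxylases, 4 of 24 genes varied (16.7%, against 8.80% of all single-gene probe sets), and none of the 4 passed the adjusted threshold in limma. Of 24 extensin and related loci 11 were matched and 3 varied. AT1G26240, a proline-rich extensin, stood at 7.58, 7.79 and 8.19 with GSH, against 7.62, 7.68 and 7.41 with cadmium alone. The groups overlapped, and the difference was 0.28 (SE 0.17, limma adjusted p = 0.562); it was 0.11 without GSH replicate 3. AT5G06630, of the same kind, differed by 0.10 (SE 0.13, limma adjusted p = 0.809). The leucine-rich repeat extensin AT4G18670 was under the background limit in both groups, at 5.80 with GSH and 5.78 with cadmium alone. The median of the 3 differences was 0.10, against -0.001 over all varying probe sets. The means of both extensins above the limit were higher with GSH, against 49.3% of the varying probe sets, and AT5G06630 was at -0.03 without cadmium replicate 2.

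The other steps of the pathway had 1 varying gene. All 8 matched genes of 16 that attach sugars to hydroxyproline, among them XEG113, an arabinosyltransferase of extensins, were constant, at 6.12 to 6.67. None of 38 arabinogalactan protein loci was matched. Of 15 genes that make or recycle ascorbate, the reductant these enzymes need, 5 were matched. The galactose dehydrogenase AT4G33670 alone varied, at 6.67 ± 0.03 with GSH and 6.66 ± 0.01 with cadmium alone (SD, n = 3 each; limma adjusted p = 0.835).

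**Figure D4:**
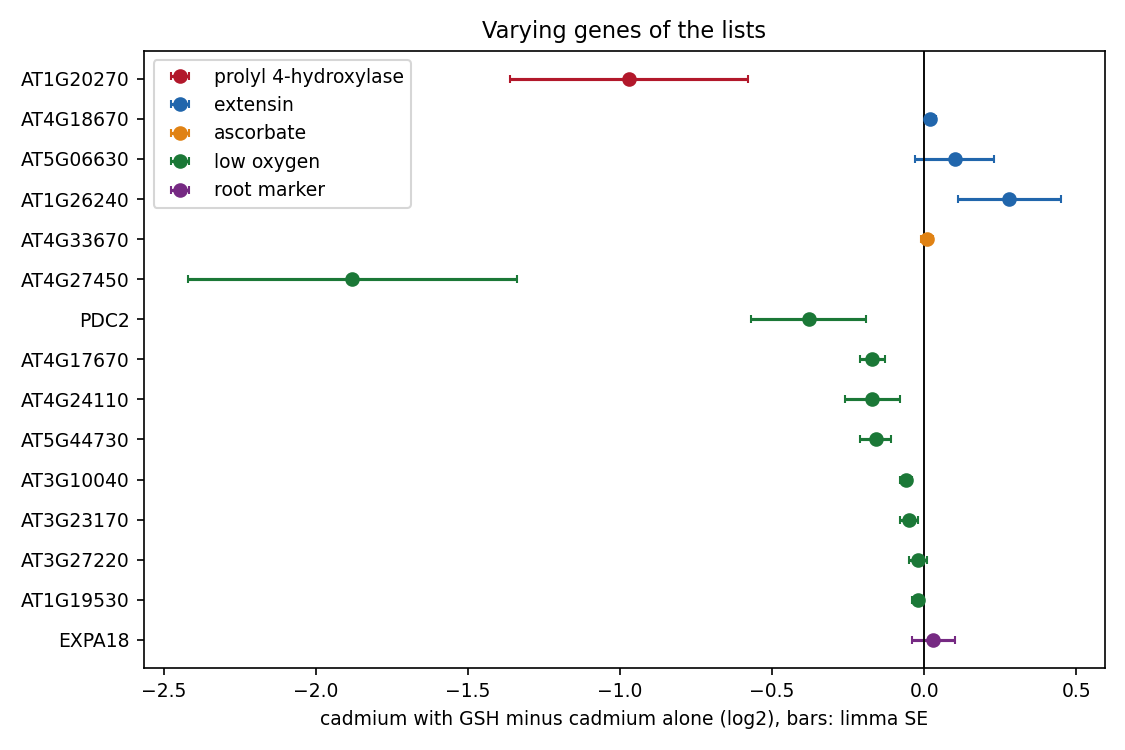
Log2 difference, cadmium with GSH minus cadmium alone, of each varying gene of the lists, with bars for the limma SE and colours for the list. AT1G20270 lies at -0.97, the extensins lie at 0.02 to 0.28, and the low-oxygen genes lie from -1.88 to -0.02.

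A list of genes known to respond to low oxygen in Arabidopsis was set beside AT1G20270, because prolyl 4-hydroxylases use oxygen as a substrate. It was drawn up with the lower signal of its member AT4G27450 under GSH already known. Other earlier results of these data were known too, so the list's counts, with or without AT4G27450, are a description and no independent test. Of 24 loci 11 were matched and 9 varied (81.8%, against 8.80% of all single-gene probe sets). Loci without a match, among them AT1G77120 and AT4G33070, could not be read. The means of all 9 were lower with GSH, against 50.7% of the varying probe sets, and 5 did not overlap between the groups, against 9.84%. All 9 lay above the background limit of 6.05 on average, some of them only just. AT3G10040, 1 of the 5, was at 6.17 with GSH and 6.23 with cadmium alone. AT3G23170 was above the limit on 1 of 3 GSH arrays. At an unadjusted p under 0.05 there were 4, against 6.67% lower at that level over all varying probe sets, and 0 passed the adjusted threshold. The median difference was -0.16, against -0.001 over all varying probe sets. Without AT4G27450, 8 of 10 matched genes varied (80.0%), all 8 with lower means, 4 of them without overlap and 3 at an unadjusted p under 0.05, and the median was -0.11. The actin difference between the 3' and 5' ends, given above, separated the groups here too, and its part in the low-oxygen values was not tested.

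The 6 low-oxygen genes with the smallest unadjusted p had limma adjusted p from 0.228 to 0.511. PDC2, a pyruvate decarboxylase of fermentation, shared the array order of AT1G20270 at its ends. It stood at 6.77, 7.27 and 7.07 with GSH, against 7.72, 7.35 and 7.18 with cadmium alone, so its groups overlapped, unlike those of AT1G20270. The PDC2 difference was -0.38 (SE 0.19), and -0.10 without replicate 1 of both groups. AT4G24110, with the same arrays at its ends, differed by -0.17 (SE 0.09), and by -0.07 without cadmium replicate 1. AT4G27450, related to a protein family induced by aluminium, stood at 7.39, 9.06 and 9.30 with GSH, against 10.30, 10.78 and 10.31 with cadmium alone. AT4G17670 differed by -0.17 (SE 0.04), AT5G44730 by -0.16 (SE 0.05) and the trihelix factor AT3G10040 by -0.06 (SE 0.02). The remaining varying genes of the list differed by only -0.05 to -0.02, and their groups overlapped. Without replicate 1 of both groups, 8 of the 9 still had lower means with GSH, but the median was -0.05, and it was -0.07 without cadmium replicate 1 alone.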

How the data were processed

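Root RNA from 6 samples was labelled with a 3' amplification kit and hybridised to 1 array each, per the labels' protocols. The authors deposited 1 value per probe set and array, taken here as log2 from its range; the base was not stated. Per the submitters' processing notes, R 2.7.2 was used; no step of background correction, normalisation or probe summary is given by the sources used here. Nothing was normalised further. Batches were not tested, since neither slides nor scan dates are known here.

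Of 22810 rows, 64 were control probe sets and stayed outside the fit. Genes came from the platform annotation: 13513 of 22746 probe sets had 1 gene, 503 several and 8730 none. Lists were matched by locus, or by symbol where the Entrez number lay on the locus's chromosome. The fit used limma 3.58.1 in R 4.3.3 (lmFit, eBayes, Benjamini-Hochberg, threshold 0.05) on the 2428 probe sets ranging over more than 0.01, because over all probe sets the prior variance was 4.06e-20. The script was tested on simulated data. Members, lists, tests and naming rules were chosen with earlier results of these data known. All matched members were named, up to 6 varying genes of each list by unadjusted p, and the 5 nearest profiles. With 3 arrays against 3, an exact permutation test cannot give a p under 0.1. Alternatives were other limits on the range, a block for the replicate number, robust eBayes with an intensity trend, leaving out dim probe sets or single arrays, quantile normalisation, median centring and a floor. The precision is limited by the number of arrays.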

Additional observations from a re-analysis of the deposited data

How the results depend on the processing

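The count of adjusted calls, 0 in limma over varying probe sets, was 42 over all probe sets (fitted with a prior variance of rounding size), 5 with a range over 0.1 and 2 with quantile normalisation. Leaving out 1 array gave 0 to 13; the 13 came without cadmium replicate 3. The difference of AT1G20270 was -1.22 to -0.64 with 1 array left out and -0.37 without replicate 1 of both groups, a setting chosen after seeing the data.

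Of 203 alternative values for the 17 named genes, 5 reversed, all of them small and none past the threshold. With 1 array left out, AT5G06630 ran from -0.03 to 0.22, AT4G33670 from -0.0024 to 0.03 and EXPA18 from -0.0049 to 0.11. EXPA18 was at -0.0049 without cadmium replicate 1, at -6.8e-05 without cadmium replicate 2 and at -0.01 without replicate 1 of both groups. AT4G18670 has no value with the floor, being under it on all arrays. Averaging a gene's probe sets was not run, since each member had 1. In the fit with a replicate block, 0 probe sets passed and AT1G20270 differed by -0.97. Same-numbered arrays did not deviate together: the correlations of their deviations from the group means, across probe sets, were -0.111, -0.207 and 0.129. Signal near background limits AT1G20270 on GSH replicate 1.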
